A study of Mus musculus with 132 samples.

Results

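In the differentiation series studied here, 3 clones of mouse embryonic stem cells (mESCs) each gave 2 RNA-seq libraries of CD41+ cells, and the comparison described is that of the second library against the first within each clone. The second libraries are those whose label ends in -2, namely Wild-type B9.3-2, P2-CTCF-KO D10.1-2 and P2-CTCF-KO D2.1-2, and the first are the CD41 libraries of the same clones without that ending. They make up 6 of the 12 CD41 libraries, of the 23 RNA-seq libraries of mESCs and their derivatives in the gene table, and of the 132 samples of the whole series. The other 6 CD41 libraries come from clones with a single CD41 library. These are Wild-type C6.1 and C8.1, P2-CTCF-KO E9.1, and P1-CTCF-KO E7.1, E7.2 and E9.1, the last with the CTCF site next to the Runx1 P1 promoter deleted. The comparison asks which classes of blood, endothelial, mesodermal or technical genes vary between repeats of a clone, since the study counted repeats as independent experiments. Nothing in the labels says when a repeat was made, so "first" and "second" are names of libraries and not an order in time.

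All cells derive from E14-TG2a, a male mESC line of the 129/Ola strain. At day 4 of a serum-free differentiation with BMP4, bFGF and Activin A, Flk1+ mesodermal cells were sorted. Culture with SCF and VEGF to day 7 gave the CD41+ hematopoietic progenitor cells (HPCs) analyzed here. Clones D10.1 and D2.1 are CRISPR-Cas9 deletions of the CTCF site next to the P2 promoter of Runx1 (P2-CTCF-KO), and B9.3 is a wild-type clone. The groups of 3 thus hold 1 wild-type and 2 P2-CTCF-KO clones each, so that genotype is balanced between first and second libraries. Each clone is a cell line grown from a selected cell, so repeats share every clone-specific change. No transcript level checks the deletion. Dates, batches and sort purities of single libraries are not given in the sources used here, so a difference of culture and a difference of sorting, RNA input or library preparation cannot be told apart.

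CD41 is the integrin alpha IIb subunit, encoded by Itga2b, and is the earliest surface marker of blood progenitors that emerge from hemogenic endothelium, a vessel-lining cell that turns into blood. It is also a major protein of megakaryocytes and platelets, and by the legends of the study cells with the highest CD41 staining are megakaryocytes while progenitors stain at an intermediate level. Cultures of this kind can hold adherent endothelial, smooth muscle and mesenchymal cells beside the suspended blood cells, and primitive erythroid cells carrying embryonic globins. By the study's flow cytometry notes, day 7 cells were sorted as negative for the erythroid antigen Ter119, positive for CD41 and negative for CD45, the pan-leukocyte antigen. Poly(A)-minus RNA-seq with reads counted over exons and introns weighs nascent transcripts and RNAs without a poly(A) tail, such as the messages of replication-dependent histones, more than a standard library does.

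The 6 libraries held 8293575 to 13513677 counts. Ribosomal RNA and entries annotated at several loci took 87.8% and 89.1% of them in the first and second library of B9.3, 88.3% and 89.1% in D10.1, and 88.2% and 88.9% in D2.1, which left 900145 to 1584401 counts for all other genes. That share was higher in the second library of every clone, by 0.931 ± 0.352 percentage points (SD, n = 3 pairs), with an exact sign-flip p of 0.25, the smallest that 3 pairs allow. The second library was also the shallower in every clone, by 0.261 ± 0.184 on the log2 scale of total counts (exact p = 0.25). Within a clone, counts of the libraries differed by more than sampling noise (chi-square per degree of freedom 10.4, 13.3 and 16.2 for B9.3, D10.1 and D2.1), so that none was a library deposited again. Tests reported are two-sided throughout, and the study counted the libraries as independent experiments, while the labels do not say which steps a repeat shared with the first library.

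Before any test, the cell type was checked on the scale of the 21 Flk1 and CD41 libraries. Itga2b lay between 8.47 and 67.1 CPM (counts scaled to a common library size) in the 6 libraries and between 0.16 and 1.49 CPM in the 9 Flk1 libraries, and Runx1, the transcription factor required for blood emergence, at 35.7 to 126 against 1.75 to 13.4 CPM. Every CD41 library was therefore above every Flk1 library for both genes. Kdr, which encodes Flk1, lay at 14.5 to 34.2 CPM in Flk1 libraries, and the first library of D2.1 fell in that range with 15.3 CPM while the other 5 had 3.06 to 9.51. The first library of D2.1 stood apart in other respects given below. Without the D2.1 pair, 19 of 40 tested erythroid genes were called higher (median log2 fold change 0.94), and of 24 tested mesenchymal genes 19 were called lower and 1 higher (median -1.87).

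Among the marker gene lists examined, those of connective tissue, smooth muscle, endothelium and megakaryocytes were lower in the second library in the fit over the 3 clones. Erythroid and histone lists were higher. Called genes outside the lists were not sorted into classes. In bulk libraries such as these, fewer cells of a type and less RNA per cell cannot be told apart. Counts were tested by edgeR's quasi-likelihood test with the clone as a block, and a gene was called at a Benjamini-Hochberg adjusted p under 0.05 with a log2 fold change beyond 1 in either direction. Of 7885 genes tested, 436 were called (5.53%), 79 of them higher in the second library (1%) and 357 lower (4.53%), and the median log2 fold change over all genes tested was -0.02. For 78 of the 79 genes called higher and 314 of the 357 called lower, the 3 second libraries did not overlap the 3 first ones, which held for 1025 of all tested genes in the higher direction (13%) and 1110 in the lower (14.1%). The calls rest on the wild-type pair and on the block. Without the B9.3 pair 0 genes were called (919 at an unadjusted p under 0.05), without the D10.1 pair 801 and without the D2.1 pair 795, and with genotype in place of the clone 20 genes, all lower. DESeq2 with the same design called 474 genes, 64 higher and 410 lower, of which 346 were among the 436.

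**Figure D1:**
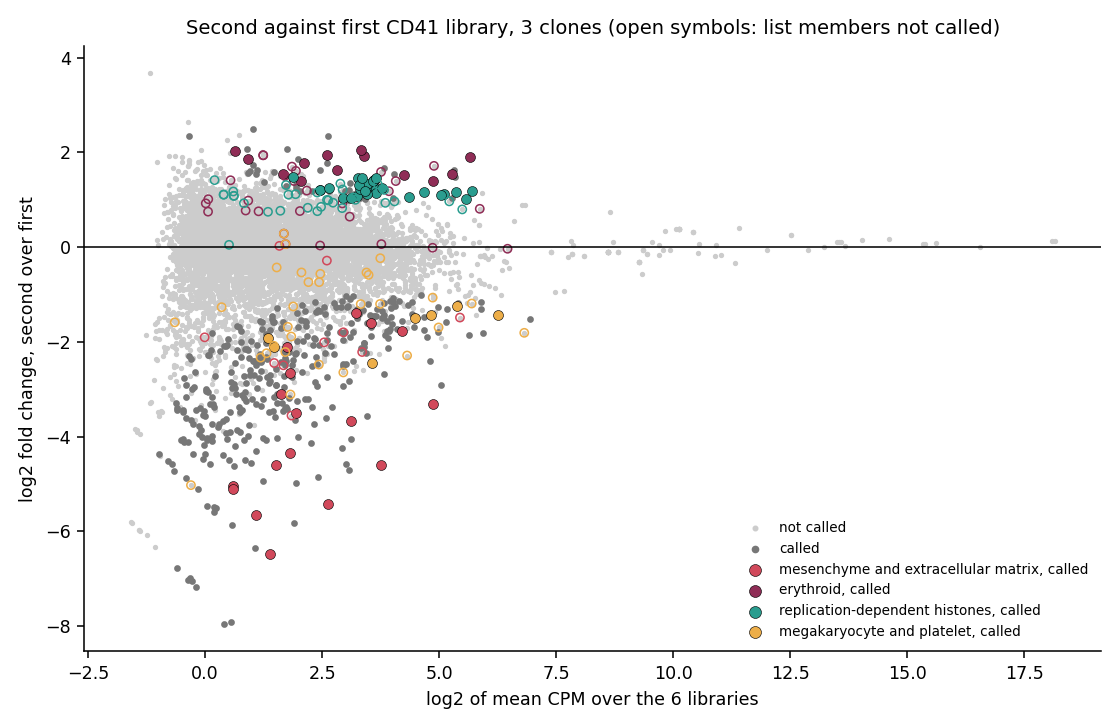
Log2 fold change of the second over the first CD41 library (vertical axis) against the log2 of mean CPM over the 6 libraries (horizontal axis) for 7885 genes. Each point is a gene, dark gray where called, and members of 4 lists are colored, filled where called and open where not; the 17 called mesenchyme members lie far below 0 while the 13 called erythroid members and 30 called histones lie above it.

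Mesenchymal and extracellular matrix genes were lower in the second libraries. Of 43 genes in the list, 27 could be tested, 17 were called lower and 0 higher, with a list median of -2.66 on the log2 scale against -0.02 over all genes tested. The summed level of the list was 411 CPM in the first and 74.0 CPM in the second library of B9.3, 191 and 55.2 CPM in D10.1, and 482 and 69.0 CPM in D2.1. The highest second library thus lay well under the lowest first library, and 19 of the 27 genes did not overlap between the sets. Of all tested genes 14.1% were lower without overlap and 4.53% were called lower. Called genes were the fibrillar collagens Col1a1, Col1a2, Col3a1, Col5a1 and Col5a2, the basement membrane genes Col18a1, Lama1, Lamc1 and Nid2, the microfibril genes Fbn1 and Fbn2, the matricellular genes Sparc, Postn and Tnc, the metalloproteinase inhibitor Timp3, the mesenchymal cadherin Cdh11 and the fetal growth factor Igf2. Without the block 5 of the 27 were called, and without the B9.3 pair none. Members near 0 in the second libraries could pass the filter on low counts only through the first. With no such filter 27 of 40 were called lower and 0 higher (median -3.24).

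Col5a1 (chromosome 2, 27741944 to 27895030 in mm9), a fibril-nucleating collagen, had the smallest p of all genes. Its level was 21.6 CPM in the first and 1.49 in the second library of B9.3, 11 and 0.737 CPM in D10.1, and 15.6 and 1.54 CPM in D2.1. All 3 first libraries were high and all 3 second low, without overlap, and the log2 fold change was -3.67 ± 0.25 (approximate SE, n = 3 pairs, edgeR adjusted p = 0.0114). Here and below, the ± on the fold change of a gene is the size of that fold change divided by the square root of edgeR's F. That F draws on variance shared across genes and not on the 3 pairs alone. Igf2 (chromosome 7, 149836672 to 149852721) had 71.9 and 5.36 CPM in B9.3, 24.3 and 3.22 in D10.1, and 64.0 and 6.65 in D2.1. Again the sets did not overlap (log2 fold change -3.31 ± 0.235, adjusted p = 0.0114). Col1a1 (chromosome 11, 94797537 to 94814356), the chief collagen of connective tissue, varied more between clones, with 50.9 and 0.996 CPM in B9.3, 18.2 and 0.0921 CPM in D10.1, and 8.72 and 1.64 CPM in D2.1. The first library of B9.3 was the highest of the 6, and the log2 fold change was -4.61 ± 0.758 (adjusted p = 0.0319). Col3a1 went from 153, 23 and 8 counts in the first libraries of B9.3, D10.1 and D2.1 to 0, 0 and 1 count in the second.

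Members differed among themselves by clone. Postn, a matrix protein of developing heart and bone, had 18.8 CPM in the first library of B9.3 against 1.23 and 1.86 CPM in those of D10.1 and D2.1, while Tnc, tenascin C, had 15.3 CPM in the first library of D2.1 against 0.833 in B9.3 and 0.379 in D10.1. Fn1, fibronectin, had 77.2 and 19.3 CPM in B9.3, 16.2 and 14.5 in D10.1, and 110 and 24 in D2.1, and did not pass the test (log2 fold change -1.49, adjusted p = 0.0898). Nid1 likewise was high in the first library of D2.1 alone, at 16.8 CPM against 0.276 to 2.58 in the other 5. The first library was the higher in each clone for these 4 genes, and the clone in which it was highest differed. Among genes outside the list with the smallest p, Rbms3 (log2 fold change -4.58), the actin-binding Cald1 (-3.57), the glypican Gpc6 (-4.06), the guidance ligand Slit3 (-4.25), the heparan sulfate sulfotransferase Hs6st2 (-4.99), Spats2l (-4.03) and the chromatin regulator Arid5b (-3.99) were also lower, with edgeR adjusted p of 0.0114 to 0.0167.

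Cardiac, lateral plate and smooth muscle genes followed the same direction at low levels. Only 9 of the 40 genes could be tested, of which 5 were called lower (Gata4, Gata6, Tbx20, Acta2 and Tagln) and 0 higher, with a median of -3.66. The share called lower over all tested genes was 4.53%. Genes near 0 in the second libraries could pass the filter on low counts only through the first, which favors this direction. With no such filter 7 of 31 were called lower and 0 higher (median -2.75). Without the B9.3 pair 0 of 7 were called and the median was -0.61, and without the block 1 of 9 was called. Acta2, smooth muscle actin (chromosome 19, 34314825 to 34329863), had 11.3 and 0.374 CPM in B9.3, 3.88 and 0.461 in D10.1, and 7.29 and 0.409 in D2.1. The 3 first libraries stood above the 3 second without overlap (log2 fold change -4.01 ± 0.402, adjusted p = 0.0167), and on the common scale of Flk1 and CD41 libraries their 3.36 to 9.94 CPM also lay above the 0 to 1.56 CPM of the 9 Flk1 libraries. Gata4, a transcription factor of heart and endoderm, went from 10, 4 and 68 counts to 0, 0 and 1 count. The list members Myh6, Myh7, Myl2, Myl7, Nkx2-5, Pln, Tcf21 and Tnnc1 had 0 counts in all 6 libraries, and Tnnt2 was high in the first library of D10.1 alone (74 counts against 0 to 15 elsewhere, adjusted p = 0.0972).

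Endothelial genes varied by clone, with some members lower in every second library and others high in the first library of D2.1 alone. Of 54 genes, 27 were tested and 6 called lower, 0 higher (median log2 fold change -1.17), where 4.53% of all tested genes were called lower. The 6 were the VEGF receptors Kdr and Flt1, the orphan receptor Tie1, the coreceptor Nrp1, the netrin receptor Unc5b and Dlc1. Without the D2.1 pair 9 of 24 were called lower and 2 higher (median -0.68), and without the B9.3 pair or without the block 0 were called. Members outside both patterns included Tal1, a blood and endothelial transcription factor, with 9.999 and 9.465 CPM in B9.3, 15.8 and 9.39 in D10.1 and 5.43 and 6.86 in D2.1, and Sox6, highest in the first library of B9.3 at 24.3 CPM. Kdr (chromosome 5, 76328851 to 76374480) had 10.8 and 4.86 CPM in B9.3, 9.94 and 3.96 in D10.1, and 18.6 and 3.79 in D2.1, with no overlap between the sets (log2 fold change -1.60 ± 0.284, adjusted p = 0.0364). The median of the 27 genes was -0.23 in B9.3 and -0.52 in D10.1 but -2.58 in D2.1, against -0.04, -0.04 and -0.005 over all genes tested. Restricted to members with at least 20 counts in a library of the pair, it was -1.05 in B9.3, -0.84 in D10.1 and -2.58 in D2.1. Among those with at least 20 counts in a library of the pair, 24 of 27 were over 2-fold lower in the second library of D2.1, 9 of 18 in B9.3 and 8 of 18 in D10.1, where 20.3%, 14.4% and 14.6% of all genes were.

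Erg, an ETS factor of endothelium and stem cells (chromosome 16, 95580775 to 95808200), had 0.667 and 1.49 CPM in B9.3, 0.189 and 2.21 CPM in D10.1, and 10.2 and 0.819 CPM in D2.1. The first library of D2.1 was the only high one, and in the other clones the second library was the higher, so the fitted log2 fold change was -0.21 (adjusted p = 0.943) and turned to 2.1, past the threshold of the test, without the D2.1 pair. VE-cadherin (Cdh5) was at 17.9 CPM in that library and at 0.663 to 2.37 CPM in the other 5, the phosphatase Ptprb at 11.7 against 0.189 to 0.996, the lymphatic and angiogenic receptor Flt4 at 5.29 against 0.333 to 1.37, and Cd34 at 5.22 against 0.189 to 2.39. None of these 4 genes was called (adjusted p of 0.483 to 0.993). Tek, the angiopoietin receptor, had 5.83 and 2.37 CPM in B9.3, 1.42 and 3.50 in D10.1 and 14.6 and 1.13 in D2.1 (adjusted p = 0.424). Primitive streak and early mesoderm genes, none of which passed the filter on low counts, summed to 12.4 CPM in the first library of D2.1 and to 0.409 to 1.17 CPM in the other 5. In the 9 Flk1 libraries they summed to 16.1 to 103 CPM on the scale of 21 libraries, where the first library of D2.1 had 10.2 CPM.

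**Figure D2:**
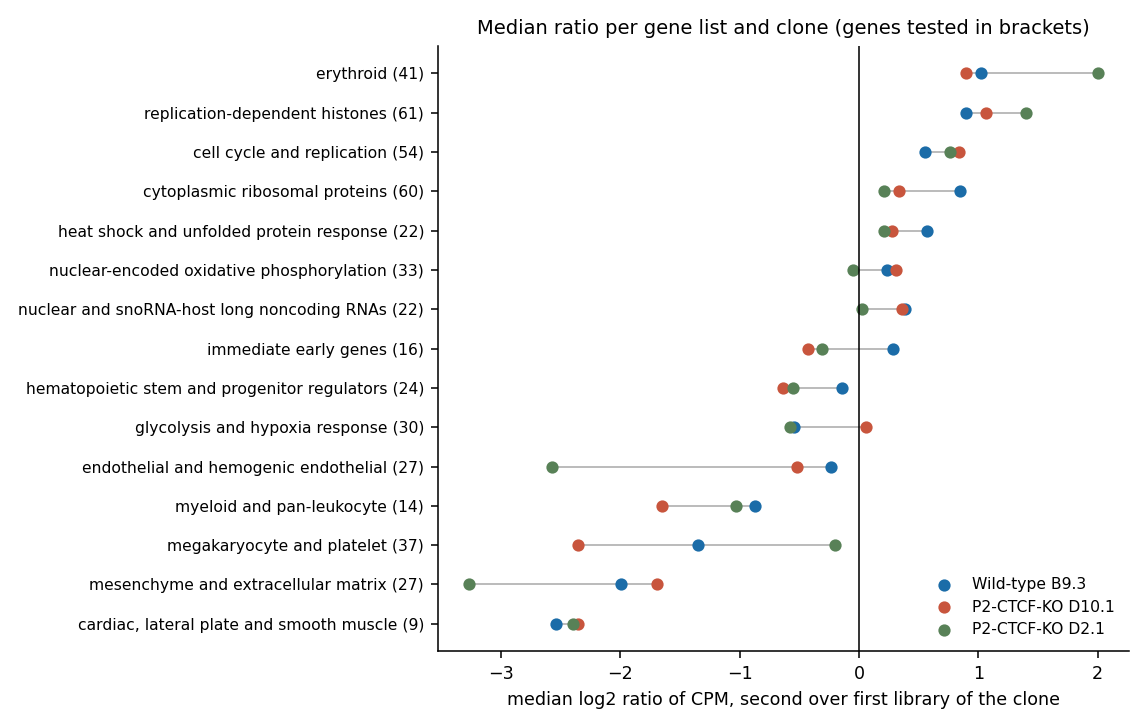
Median log2 ratio of CPM of the second over the first library (horizontal axis) of 15 gene lists with the number of tested genes in brackets, each dot a clone and gray lines joining the clones. The erythroid and histone medians lie right of 0 and the mesenchyme and cardiac medians left of -1 in all 3 clones, whereas the endothelial median of D2.1 (-2.58) lies apart from the other clones and the megakaryocyte medians (-1.35 in B9.3, -2.35 in D10.1 and -0.20 in D2.1) are spread.

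Erythroid genes were higher in the second libraries. Of 47 genes, 41 were tested, 13 called higher and 0 lower (median log2 fold change 1.4), and 29 of the 41 did not overlap between the sets. The shares over all tested genes were 1% called higher and 13% higher without overlap. The summed level was 372 and 628 CPM in B9.3, 497 and 645 in D10.1, and 208 and 751 in D2.1. All 3 second libraries lay above all 3 first, and the largest step came from the low first library of D2.1. Among the called genes were the embryonic globins Hbb-bh1 and Hba-x, the heme synthesis genes Alas2, Alad, Cpox and Ppox, the transferrin receptor Tfrc, the mitochondrial iron importer Slc25a37, the cytoskeletal Add2, Tspan33 and Trim10. Without the B9.3 pair or without the block, 0 of the list were called (medians of 1.51 and 1.41).

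Hbb-bh1 (chromosome 7, 110990151 to 110991676) had 21.7 and 44.2 CPM in B9.3, 26.1 and 77.0 in D10.1, and 11.9 and 49.6 in D2.1. The lowest second library exceeded the highest first one, with a log2 fold change of 1.55 ± 0.239 (adjusted p = 0.0303). Hba-x had 23.5 and 78.0, 30.9 and 67.2, and 11.9 and 89.8 CPM in the same order (1.91 ± 0.35, adjusted p = 0.0376). Alas2, the rate-limiting enzyme of erythroid heme synthesis, had 5.83 and 14.6, 4.07 and 15.7, and 2.29 and 17.7 CPM, again without overlap (2.05 ± 0.334, adjusted p = 0.0319). Membrane skeleton genes moved less evenly. Slc4a1, the anion exchanger band 3, had 7.67 and 19.2 CPM in B9.3 and 3.22 and 31.9 in D2.1 but 8.81 and 10.3 in D10.1 (adjusted p = 0.149), and the ankyrin gene Ank1 had 11.6 and 26.4 CPM in B9.3, 4.93 and 33.1 in D2.1 and 11.2 and 13.7 in D10.1 (adjusted p = 0.125). The erythropoietin receptor Epor and Epb41 had log2 fold changes of 0.75 and -0.04 (adjusted p of 0.432 and 0.953). The regulators Gata1, Zfpm1, Gfi1b and Nfe2 of the list had log2 fold changes of 0.06, -0.02, 0.03 and 0.28 (edgeR adjusted p of 0.724 to 0.978). Each was lower in the second library of B9.3 and D10.1 and higher in that of D2.1. Klf1 was higher in each second library (0.92, adjusted p = 0.229). Outside the list, the mitochondrial transporter Abcb10 (1.55 ± 0.213, adjusted p = 0.0259) and the zinc and manganese importer Slc39a8 (1.66 ± 0.253, adjusted p = 0.0302) were among the 10 genes with the smallest p in the higher direction.

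**Figure D3:**
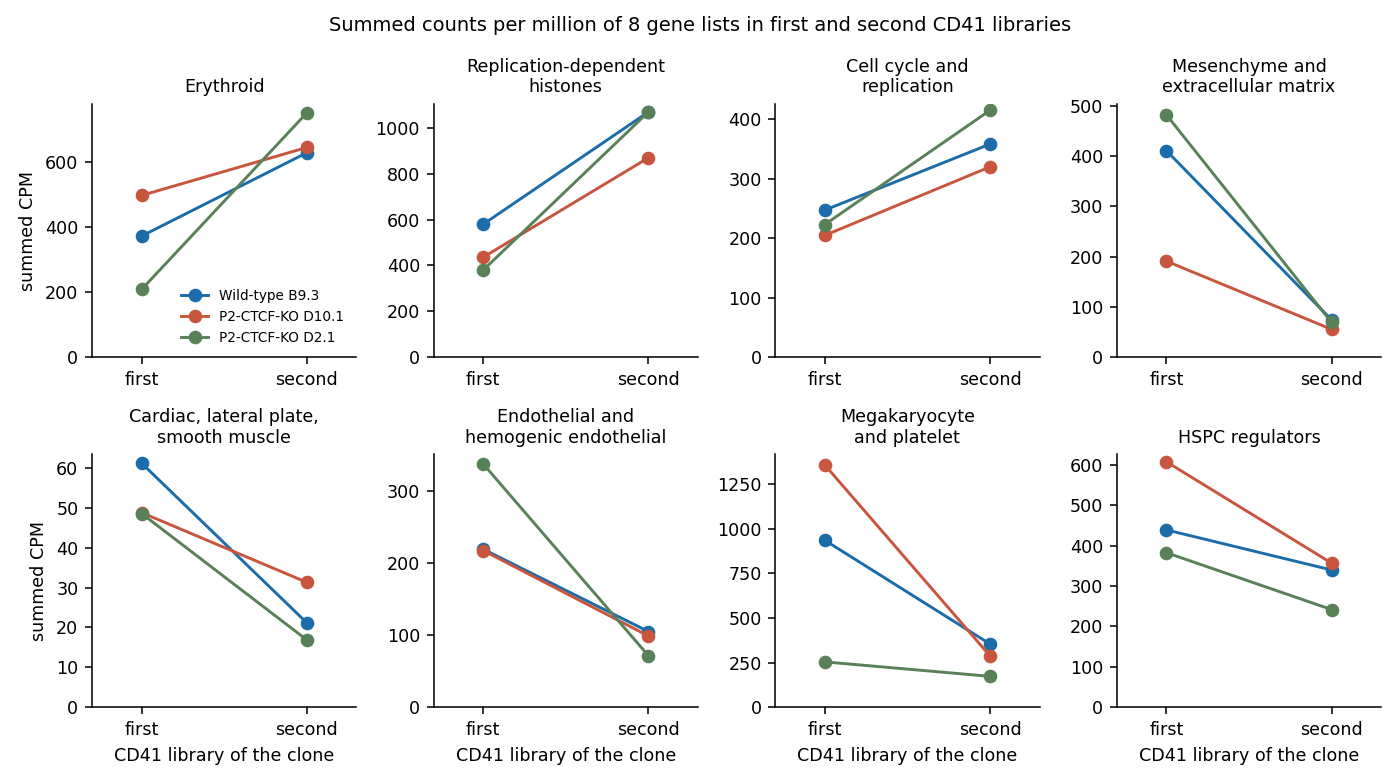
Summed CPM (vertical axis, from 0) of 8 gene lists in the first and second CD41 library of each clone, with a line per clone. Erythroid, histone and cell cycle sums are higher in the second library in each clone, mesenchyme sums go from 191 to 482 CPM down to 55.2 to 74.0 CPM, and the megakaryocyte sum spans 254 to 1357 CPM in first but 173 to 355 CPM in second libraries.

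Replication-dependent histone genes, which are transcribed in S phase and end without a poly(A) tail, were higher in the second libraries. Of 69 genes matched through their older symbols, 61 were tested, with 30 called higher and 0 lower. All 61 had a positive fold change (median 1.13 on the log2 scale), and 54 did not overlap between the sets. Among all tested genes 1% were called higher and 13% were higher without overlap. Their sum was 580 and 1071 CPM in B9.3, 436 and 871 in D10.1, and 380 and 1071 in D2.1, so that each second library was above each first. H3c1 (chromosome 13, 23853753 to 23854255) had 7.25 and 17.6, 3.88 and 12.3, and 5.43 and 15.2 CPM (log2 fold change 1.47 ± 0.2, adjusted p = 0.0259). The linker histone gene H1f4 had 36.9 and 86.3, 28.6 and 47.1, and 28.5 and 84.5 CPM (1.17 ± 0.215, adjusted p = 0.0378). Histone genes are near-identical copies, and 8 of the list share their counts with another entry, H2bc23 with H4bc24 and H2ac23 with H2ac24 among those called, so single copies are uncertain. Without the B9.3 pair or without the block 0 were called.

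Cell cycle and replication genes shifted the same way with 0 of 54 tested genes called in either direction (median log2 fold change 0.68). Their sum was 247 and 358 CPM in B9.3, 205 and 320 in D10.1, and 223 and 415 in D2.1, without overlap. In the higher direction 33 of the 54 did not overlap, against 13% of all tested genes. Mki67, the proliferation marker Ki-67, had 50.7 and 85.3, 32.4 and 59.1, and 30.3 and 105 CPM (log2 fold change 1.14 ± 0.248, adjusted p = 0.0515). Pola1, a DNA polymerase subunit, and Pcna, the polymerase clamp, had log2 fold changes of 0.67 and 1.01 (adjusted p of 0.0752 and 0.10). Histones and cell cycle genes are both also transcribed in dividing cells of any lineage, so their sums do not name a cell type.

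Megakaryocyte and platelet genes were lower in the second libraries, least so in D2.1. Of 39 genes, 37 were tested and 7 called lower, 0 higher (median log2 fold change -1.44), where 4.53% of all tested genes were called lower. The 7 were the integrin subunits Itgb3 and Itga6, the ETS factor Fli1, coagulation factor F5, the signaling regulator Rgs18, the granule trafficking gene Rab27b and the TGF-beta binding Ltbp1. The sum was 935 and 355 CPM in B9.3, 1357 and 288 in D10.1, and 254 and 173 in D2.1, so that the first library of D2.1 lay below the second library of the other clones. Itgb3, the partner of CD41 in the platelet fibrinogen receptor (chromosome 11, 104469313 to 104531785), had 110 and 43.1, 206 and 43.4, and 35.0 and 21.4 CPM. It was lower in the second library of each clone while the sets overlapped (log2 fold change -1.44 ± 0.304, adjusted p = 0.048). The granule genes varied by clone. Pf4 had 4.08 and 0.872 CPM in B9.3, 15.1 and 0.184 in D10.1, and 0.501 and 0.512 in D2.1 (adjusted p = 0.122), Thbs1 245 and 66.1, 258 and 34.4, and 43.7 and 28.8 CPM (adjusted p = 0.0618), and Vwf 59.2 and 17.4, 85.0 and 12.1, and 9.37 and 7.16 CPM (adjusted p = 0.0802). Over 2-fold lower in the second library were 22 of 34 genes with at least 20 counts in B9.3, 31 of 36 in D10.1 and 4 of 25 in D2.1. Without the D2.1 pair 29 of 37 were called lower, without the B9.3 pair or the block 0. The serotonin transporter Slc6a4, carried by platelets, had 11, 70 and 5 counts in the first libraries of B9.3, D10.1 and D2.1 and 0 in all second libraries.

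Leukocyte genes were sparse. Of 56 myeloid and pan-leukocyte genes 14 were tested and 4 called lower (the signaling genes Lcp2, Vav1 and Lyn, and Alox5ap of leukotriene synthesis), and 12 had 0 counts in all 6 libraries, among them the granule genes Elane, Prtn3, Ctsg and Lyz1. Ptprc, which encodes CD45, had 1 to 3 counts in each library. Among 24 tested regulators of hematopoietic stem and progenitor cells, Meis1, Etv6 and Angpt1 were called lower and none higher (median log2 fold change -0.30). For both lists the share called lower over all tested genes was 4.53%. Meis1, a homeobox factor of stem cells and megakaryocytes, had 56.6 and 20.8, 81.7 and 21.7, and 22.5 and 8.70 CPM (-1.58 ± 0.197, adjusted p = 0.022). Each first library lay above each second one, by a small margin between the first of D2.1 and the second of D10.1.

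Runx1 itself (chromosome 16, 92601710 to 92826319) was not called. It had 90.3 and 73.1 CPM in B9.3, 146 and 79.2 CPM in D10.1, and 54.3 and 44.2 CPM in D2.1, based on 432 to 1537 counts. It was lower in the second library of each clone, by 0.49 ± 0.191 on the log2 scale (adjusted p = 0.182), with overlap between the sets, and the spread between repeats of D10.1 alone was 0.88. The sort marker Itga2b (chromosome 11, 102314610 to 102331197) had 39.7 and 19.7, 77.5 and 15.1, and 10.3 and 12.1 CPM (log2 fold change -1.07 ± 0.469, adjusted p = 0.231). Its difference was large in D10.1, moderate in B9.3 and in the other direction in D2.1, the clone order also seen for Pf4. Ctcf, the factor whose site was deleted, had 5.72 to 6.82 CPM in first and 7.09 to 9.42 CPM in second libraries (0.44 ± 0.228, adjusted p = 0.301).

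Technical and housekeeping lists held at most 2 called genes each, some of them a larger share than the 5.53% called over all tested genes. None of 4 tested small nucleolar and Cajal body RNAs, 4 structural RNAs including Rn45s, 60 genes of the cytoplasmic ribosomal protein list (which by its pattern of symbols holds 10 S6 kinase genes) and 4 Y-linked genes was called. The median of the structural RNAs was 0.73 on the log2 scale, with 1.09 in B9.3, -0.14 in D10.1 and 1.14 in D2.1. Among them Rpph1, the RNA of ribonuclease P, had 76.7 and 190 CPM in B9.3, 104 and 88.1 in D10.1 and 57.9 and 169 in D2.1 (adjusted p = 0.202). The median of the ribosomal protein list was 0.40 on the log2 scale, with 0.84 in B9.3, 0.33 in D10.1 and 0.21 in D2.1. The list of nuclear-encoded oxidative phosphorylation genes had 1 of 33 called (3.03%, Cox6b2, higher) and immediate early genes 2 of 16 (12.5%, Fosl2 and Egr1, lower). Heat shock and unfolded protein genes had 2 of 22 called (9.09%, Hsp90aa1 and Asns, higher), and glycolysis and hypoxia genes 2 of 30 (6.67%, Pfkfb4 higher, Slc2a3 lower). Nuclear long noncoding RNAs had 2 of 22 called lower (9.09%), the imprinted Meg3 and Rian. Malat1, a nuclear speckle RNA, had 701 and 458 CPM in B9.3, 1255 and 572 in D10.1 and 449 and 460 in D2.1 (adjusted p = 0.219), and Neat1 had 53.2 CPM in the first library of D10.1 against 2.25 to 10.9 elsewhere (adjusted p = 0.0571). Interferon response genes had 0 of 2 called, pluripotency genes 0 of 2 and the endodermal and neural list 1 of 2 (Dab2, lower), while no mitochondrially encoded gene was matched. The ratio of second over first library correlated with gene span in each pair (Spearman rho -0.303, -0.146 and -0.346 over 7885 genes), a description across genes that are not replicates, and its part in the calls was not tested.

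Reelin (Reln, chromosome 5, 21390271 to 21850523), a secreted glycoprotein best known from the brain, had the smallest p among genes called higher. Its level was 16.3 and 44.6 CPM in B9.3, 21.0 and 75.4 in D10.1, and 20.0 and 61.1 in D2.1. The second libraries did not overlap the first (log2 fold change 1.64 ± 0.181, adjusted p = 0.0181). The nuclear pore gene Nup210 (1.64 ± 0.228) and Dlgap1 (2.35 ± 0.321) were also called higher, with adjusted p of 0.0259 each.

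Within single clones, where a library is set against a library and no test is possible, the median absolute log2 ratio was 0.44 in B9.3, 0.48 in D10.1 and 0.58 in D2.1 among genes with at least 20 counts. Over 2-fold higher were 248 of 5447 genes in B9.3 (4.55%), 393 of 5361 in D10.1 (7.33%) and 554 of 6131 in D2.1 (9.04%). Over 2-fold lower were 783 (14.4%), 781 (14.6%) and 1244 (20.3%). Of 4722 genes with such counts in every pair, 44 were over 2-fold higher in all 3 (0.932%) and 180 over 2-fold lower in all 3 (3.81%). The ratios of the pairs correlated across 7885 genes at r = 0.547 for B9.3 and D10.1, 0.598 for B9.3 and D2.1 and 0.363 for D10.1 and D2.1. Among the extremes of single clones were Ripor2 in D10.1 (from 31.5 to 0.645 CPM), the transcriptional repressor Tcf7l1 in D2.1 (from 180 counts to 1) and the receptor phosphatase Ptprm, which had 64.5 CPM in the first library of D2.1 and 0.758 to 10.2 CPM in the other 5.

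Second libraries were more like each other across clones than like the first library of their own clone. Over 7771 genes, log2 CPM correlated between second libraries at r = 0.912 (B9.3 and D10.1), 0.917 (B9.3 and D2.1) and 0.90 (D10.1 and D2.1). First and second library of the same clone correlated at 0.786 in B9.3, 0.818 in D10.1 and 0.678 in D2.1. First libraries correlated with each other at 0.899 (B9.3 and D10.1), 0.828 (B9.3 and D2.1) and 0.743 (D10.1 and D2.1). These are correlations across genes of 6 libraries and carry no p.

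To place the libraries between mesoderm and HPCs, 200 genes higher and 200 lower in CD41 than in Flk1 libraries were taken from P1-CTCF-KO clones, in which another CTCF site at Runx1 is deleted and which have no library among the 6. The mean log2 CPM of the mesoderm genes was 4.2 in the first and 2.67 in the second library of B9.3, 3.19 and 2.67 in D10.1, and 5.46 and 2.56 in D2.1. It was 6.09 to 6.59 in Flk1 libraries and 2.32 to 2.97 in the 6 CD41 libraries of clones with a single library, so the second libraries lay within the range of the latter and the first above it. Of those 6, the 3 P1-CTCF-KO libraries had served to choose the genes. The mean of the HPC genes was 6.92 and 6.14, 7.47 and 6.21, and 5.39 and 5.56, lower in the second library of B9.3 and D10.1. On a combined scale with Flk1 at 0 and CD41 at 1, the libraries lay at 0.791 and 0.879, 0.973 and 0.886, and 0.467 and 0.824, a mean difference of 0.119 ± 0.224 (SD, n = 3 pairs, exact sign-flip p = 0.5). The combined position thus did not separate first from second libraries, while the mesoderm genes taken alone did in all 3 clones. Of the 200 mesoderm genes 163 passed the filter on low counts, with 33 called lower and 0 higher. Genes near 0 in the second libraries could pass only through the first, so the filter favored this direction. All 200 HPC genes were tested, with 23 called lower and 3 higher. Of all 7885 tested genes 4.53% were called lower and 1% higher.

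**Figure D4:**
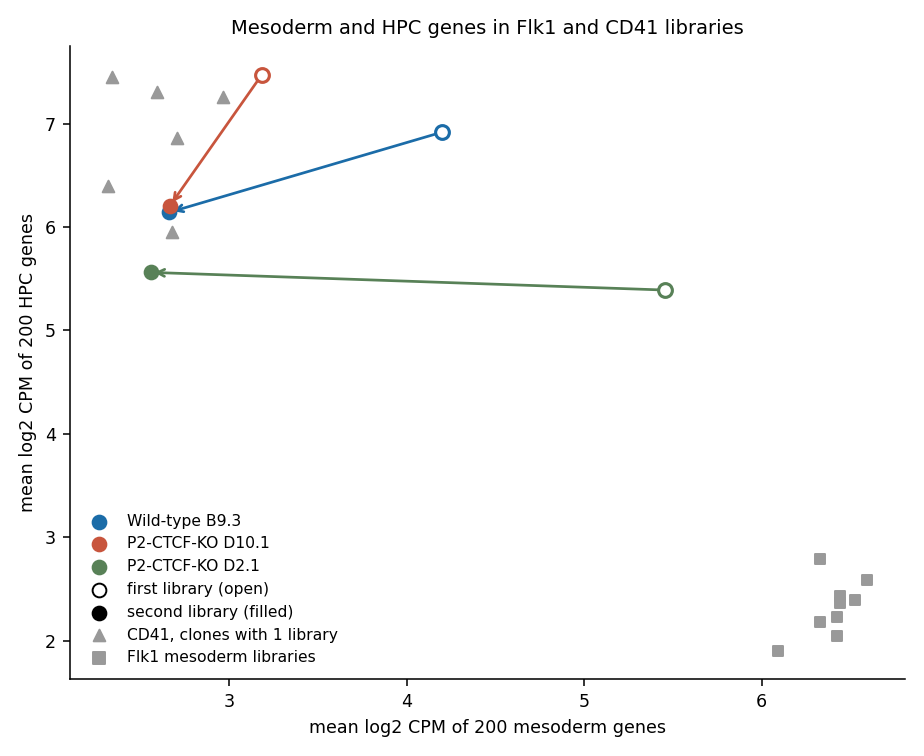
Mean log2 CPM of 200 HPC genes (vertical axis) against that of 200 mesoderm genes (horizontal axis) in 9 Flk1 libraries (squares), 6 CD41 libraries of clones with 1 library (triangles), and first (open) and second (filled) libraries of 3 clones joined by arrows. The second libraries lie at 2.56 to 2.67 on the horizontal axis among the triangles, and the first libraries at 3.19 to 5.46.

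Set against the other 6 CD41 libraries, which member of a pair was unlike the rest depended on the list. On the scale of all 12 CD41 libraries, mesenchymal genes summed to 185 to 462 CPM in first, 53.8 to 71.8 in second and 50.7 to 160 CPM (median 74.8) in single libraries. First libraries were above all others, and second libraries within the single ones. Erythroid genes summed to 199 to 482, 610 to 731 and 384 to 722 CPM, histones to 364 to 563, 849 to 1042 and 452 to 885 CPM, and megakaryocyte genes to 244 to 1315, 169 to 344 and 279 to 1256 CPM. For these 3 lists the single libraries spanned most of the distance between the sets, with medians of 592, 548 and 728 CPM. The histone median lay within the first libraries, and the second libraries of B9.3 and D2.1 lay above every single library. Cell cycle genes summed to 198 to 240 CPM in first, 312 to 404 in second and 199 to 383 CPM (median 217) in single libraries. A fit chosen after the data were seen had genotype as a term. All P1-CTCF-KO libraries are single, so its contrasts with single libraries rest on the other genotypes. Between first and single libraries 58 of 8005 genes differed (0.725%), 57 of them higher in the first. Of 26 mesenchyme genes 6 were among these (list median 3.21). Without the first library of D10.1 344 genes were called, and without the first or second library of B9.3, the second of D2.1 or the single libraries of C6.1, C8.1 or P2-CTCF-KO E9.1, 0 each. Between second and single libraries 0 of 8005 genes were called by edgeR (0%, 118 at an unadjusted p under 0.05), with a mesenchyme median of -0.14.

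**Figure D5:**
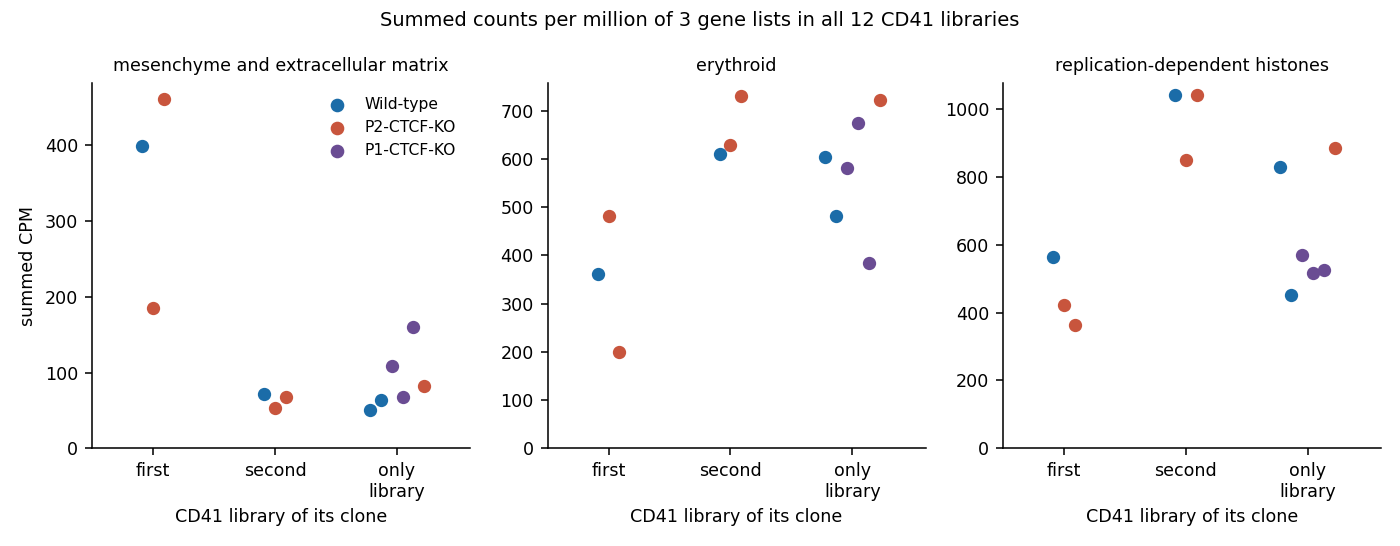
Summed CPM (vertical axis, from 0) of 3 gene lists in first, second and only CD41 libraries, colored by genotype, on the scale of 12 CD41 libraries. For the mesenchyme list the 3 first libraries (185 to 462 CPM) lie above the other 9. For the erythroid and histone lists the only libraries overlap both the first and the second.

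The difference between repeats was compared with that between genotypes and clones. Whether the wild-type pair differed from the P2-CTCF-KO pairs was tested as an interaction, and 0 of 7885 genes passed an adjusted p of 0.05 in edgeR (41 at an unadjusted p under 0.05), with 1 wild-type pair in the test. Between P2-CTCF-KO and wild-type CD41 libraries, each library counted as a sample, 0 of 7422 genes were called (0%, 145 at an unadjusted p under 0.05), and DESeq2 called 0 (112 unadjusted). With the first library alone of each clone 0 were called (134 unadjusted), with the second in its place 0 (541 unadjusted) and with repeats summed 0 (151 unadjusted). The log2 fold change of Runx1 from wild-type to P2-CTCF-KO was -0.31 over all 12 CD41 libraries, -0.26 with first, -0.67 with second and -0.44 with summed libraries, none with an adjusted p under 0.636. Between clones of a genotype, with the repeats as the only source of error, edgeR called 0 of 8980 genes (0%, 83 at an unadjusted p under 0.05) and DESeq2 8. That error holds the shift shared by second libraries, since the test had no term for first and second, so the count of 0 does not show that clones were alike. Zc3h7a, a zinc finger gene, had the smallest p of that test but was not called (edgeR adjusted p = 0.9998). It had 72.4 and 78.5 CPM in D10.1 and 3.28 to 7.33 CPM in the other 4 libraries, a level that both repeats of a clone shared. That level was not particular to D10.1. On the scale of 12 CD41 libraries P1-CTCF-KO E7.1 had 90.5 CPM, and the single libraries ranged from 2.32 CPM up to it. Rn45s was also highest in E7.1 (480800 CPM) and D10.1 (344800 and 336100 CPM), and a link between the 2 was not tested.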

How the data were processed

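Gene counts from poly(A)-minus RNA-seq were used (23 libraries). The count values are whole reads per gene as the authors deposited them: reads were mapped to mm9 with STAR, PCR duplicates removed, and reads over exons and introns assigned with featureCounts, without normalization. Annotation and strand setting are not given in the sources used here, so a gene and its antisense partner cannot be told apart. RNA input and PCR cycles differed between samples and are not given per library. The table held 25146 genes. The Tiled-C, ATAC-seq, ChIP-seq, bisulfite and 416B data of the series were not used here.

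Each library was mapped to its clone by its label. The 3 pairs were compared in R 4.3.3 with edgeR 4.0.16 (TMM, filterByExpr with a minimum count of 10, glmQLFit, clone as block, 2 residual degrees of freedom). CPM refer to the effective library size, and log2 ratios per pair use a prior count of 1. Same-clone libraries deviated together (r = 0.226, 0.169 and 0.19 over 3942 genes), while first and second libraries of different clones gave r of -0.292 to 0.137. The libraries were paired by their shared clone. Multi-locus entries (185, spanning several places or over 2.5 Mb) and Rn45s were left out of the 200-gene scores and the correlations of levels. Single values were tested by exact sign flips over pairs. DESeq2 1.42.0, RLE factors, no filter, no block and each pair left out were the alternatives. The paired fit and the clone test were tested on simulated counts, the other fits were not. Gene lists came from general knowledge of marker genes. Members and lists were chosen with earlier results of these data known, and 2 lists (imprinted genes, amino acid response) after the fit was seen. Named genes were Runx1, Ctcf and sort markers, the 10 called genes with the smallest p per direction, the extremes of each pair, list members with the widest range of ratios or highest level, and the top of the clone test. Other members (among them Cdh5, Postn, Tnc, Pcna and all those called) were chosen after their values were seen. Some genes that the rule names are not reported here.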

Additional observations from a re-analysis of the deposited data

Results flagged for a closer look

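Within the 4 wild-type or 5 P2-CTCF-KO CD41 libraries, on the scale of all 12 CD41 libraries, 6 list sums had a library far from the others by Dixon's test, all of them a first library of a clone with 2. About 1 in 20 groups is flagged by chance. In B9.3 the mesenchyme and extracellular matrix sum was 398.6 CPM, and the next wild-type library had 71.8 CPM. In D10.1 the megakaryocyte sum was 1315 CPM (next 280.9), the myeloid sum 113.9 CPM (next 42.9) and the sum of nuclear long noncoding RNAs 1351 CPM (next 688.1). In D2.1 the pluripotency sum was 17.4 CPM (next 6.75) and the endodermal, epithelial and neural sum 13.3 CPM (next 1.65).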

How the results depend on the processing

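No call in the paired fit survived the loss of the B9.3 pair: leaving out a pair gave 0 to 801 called genes, 0 to 173 of them higher and 0 to 639 lower. With no replicate block, 20 genes were called, 0 higher and 20 lower, and all 20 were among the 436. Without the filter on low counts 1052 were called, 177 higher and 875 lower, including all 436. RLE factors (478), no limit on the fold (455), DESeq2 (474) and multi-locus entries left out (472) stayed within 1.5 times of 436. Erg (-0.21) ranged from -1.71 to 2.1 over pairs left out, positive without the D2.1 pair, and was 0.45 by DESeq2. Requiring at least 50 counts left 501 genes over 2-fold in B9.3, 648 in D10.1 and 1079 in D2.1, of fewer genes examined. The clone test called 8 genes by DESeq2 and 622 without a filter. First against single libraries gave 0 to 344 genes when a library was left out, with 23 without the second of D10.1 and 21 without P1-CTCF-KO E7.1. Ribosomal RNA alone differed by 0.526 points (exact p = 0.75). The difference in position on the mesoderm to HPC scale stayed between 0.09 and 0.18 with exact p of 0.25 to 0.75. Causes of these shifts were not tested. Shallow libraries and 3 pairs limit calls to large differences.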

Other observations

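Lists written after the paired fit had been seen describe 2 further groups, and their counts are a description only. Of 35 imprinted genes 20 were tested, and 7 were called lower in the second libraries (Igf2, Mest, Peg3, Zim1, Meg3, Rian and Zdbf2). The median log2 fold change of the list was -1.39, and 4.53% of all tested genes were called lower. Peg3, a zinc finger gene expressed from the paternal allele, had 27.2 and 4.98 CPM in B9.3, 10.2 and 4.61 in D10.1, and 31.0 and 7.88 in D2.1, without overlap. Igf2 is shared with the mesenchyme list, and Meg3 and Rian with the long noncoding list. Airn and Grb10, also imprinted, had log2 fold changes of 0.26 and -0.18 (edgeR adjusted p of 0.501 and 0.703).

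Genes of the amino acid response and tRNA synthetases were higher in the second libraries. Of 29 tested, Asns, Slc7a1, Slc7a5, Slc1a4 and Gars were called higher and none lower (median log2 fold change 0.91), where 1% of all tested genes were called higher. Asns, asparagine synthetase, had 1.42 and 3.99 CPM in B9.3, 1.52 and 3.22 in D10.1, and 2.00 and 7.57 in D2.1. Slc7a5, a large neutral amino acid transporter, had 2.25 and 4.86, 1.23 and 3.04, and 2.29 and 6.24 CPM. In both genes all second libraries lay above all first. Without the B9.3 pair none of either list was called.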
